A study of Homo sapiens with 12 samples.

Results

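The genes of the hypoxia-inducible factor (HIF) pathway and its targets outside glycolysis were followed in MDA-MB-231 cells, an established human triple-negative breast cancer (TNBC) line, after knockdown of NONO or of PKM2. The set held 33 genes, taken by gene name and joined on gene identifier, of 60623 genes in the table of the NONO experiment and 60671 in that of the PKM2 experiment, with 60558 identifiers in both. RNA-seq was performed on 12 libraries in 2 experiments. Each experiment had 3 libraries of cells given a negative control (NC) and 3 of knockdown cells, and no NC library served both. The paper's siRNA and shRNA methods describe both kinds of reagent, and which of them was used for sequencing, the time after knockdown and the oxygen tension were not given in the sources used here. Nothing in the labels says whether libraries of a group came from separate cultures, so P-values measure the spread between these libraries, which may be technical.

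HIF is a dimer of an oxygen-regulated α subunit, HIF-1α or HIF-2α, and the constitutive β subunit ARNT. With oxygen present, prolyl hydroxylases of the EGLN family mark the α subunit for the ubiquitin ligase component VHL, and the asparaginyl hydroxylase encoded by HIF1AN blocks coactivator binding. When oxygen falls the dimer accumulates and induces genes for pH control, vessel growth, collagen processing, mitophagy and lipid storage, and hypoxic breast tumours are known for high expression of such genes. The α subunits are controlled largely at the protein level, which RNA-seq does not measure.

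The dimer binds DNA at sites with the core letters ACGTG, so the promoters of the set were searched for this motif on both strands. RefSeq promoter windows of GRCh38.p14, from 250 bases before to 50 bases after the first listed start of each gene, were matched for 26 of the 33 genes. BNIP3L, HILPDA, LOXL2, NDRG1, STC1, VEGFA and VHL had no matched window. ACGTG was found in 13 of the 26 windows, against 5900 of 27305 windows (21.6%) over all genes. With GCGTG counted as well, 20 of the 26 (76.9%) held either motif, against 48.4% over all genes. The genes were chosen as members or targets of the HIF pathway, so a high share is no independent result. The excerpts below show the ACGTG nearest the start for 5 genes that fell or were lost after PKM2 knockdown and for 3 that rose, each 5′ to 3′ on the strand of the gene. Capitals mark ACGTG on either strand, so that CACGT is a match on the opposite strand. In PPFIA4, BNIP3 and EGLN2 it lies in the palindrome CACGTG, which is also an E-box, the site of other bHLH factors. The excerpts lie at chr1:203026343-203026407 (plus strand) for PPFIA4, chr10:131982022-131982086 (minus) for BNIP3, chr3:122384068-122384132 (plus) for FAM162A, chr10:73096936-73096964 (minus) for P4HA1, chr9:35673898-35673926 (plus) for CA9, chr19:40799113-40799177 (plus) for EGLN2, chr19:8363905-8363955 (plus) for ANGPTL4 and chr14:52695656-52695684 (minus) for ERO1A.
PPFIA4: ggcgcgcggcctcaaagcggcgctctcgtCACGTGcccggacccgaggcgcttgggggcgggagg
BNIP3: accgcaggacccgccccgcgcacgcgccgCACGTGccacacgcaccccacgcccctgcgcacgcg
FAM162A: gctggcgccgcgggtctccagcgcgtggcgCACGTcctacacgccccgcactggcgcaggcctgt
P4HA1: tgtgatcgagctCACGTagcgagggctgc
CA9: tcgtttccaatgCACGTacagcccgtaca
EGLN2: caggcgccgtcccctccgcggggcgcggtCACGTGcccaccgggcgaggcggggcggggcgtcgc
ANGPTL4: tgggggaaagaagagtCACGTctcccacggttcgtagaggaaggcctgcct
ERO1A: cgggcgccgcggCACGTccacaggctggg

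Genes that moved in either direction held the motif. After PKM2 knockdown it was held by 5 of the 10 lowered genes with a window, 4 of the 9 raised genes and 3 of the 6 genes that were not called. A match describes letters in these windows only, and binding was not measured here.

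The libraries held 19861762 to 28455268 estimated counts. The targeted genes fell in every library. NONO stood at 391, 358 and 369 CPM (read counts scaled to library size with TMM factors) in its NC libraries and 61.8, 64.3 and 61.9 CPM after NONO knockdown. PKM, whose gene-level value covers both PKM1 and PKM2 transcripts, stood at 2276, 2211 and 2324 CPM in its NC libraries and 218, 228 and 234 CPM after PKM2 knockdown. Most markers matched the label. VIM was at 3290 to 4470 TPM (transcript abundance scaled for length and depth) in all 12 libraries. ESR1, PGR and CDH1 did not exceed 0.41 TPM, and CD3E was listed at 0. Other luminal or receptor markers were not silent. ERBB2 was at 13.7 to 35.2 TPM, while GATA3 reached 4.37 TPM, EPCAM 3.73 TPM and FOXA1 1.99 TPM. The endothelial marker PECAM1 reached 2.31 TPM.

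NC library 1 of the NONO experiment stood apart from its replicates. Its counts differed from those of the other NC libraries with chi-square values of 11.1 and 8.94 per degree of freedom, against 2.54 between those. It also held less RNA of many hypoxia genes: 11 of the 33 lay more than 0.5 below the mean of the other 2 libraries on the log2 CPM scale and 0 lay that far above it, where 7.77% of all genes tested lay below and 2.72% above. BHLHE40, PPFIA4, NDRG1 and STC2 were lower by over 1 log2 unit in it, and the value of CA9 was -1.67. Every gene of the set called after NONO knockdown with or without this library is given both ways. The third PKM2-knockdown library also stood apart, with chi-square values of 13.4 and 11.4 per degree of freedom. Without it none of the 32 genes tested in that experiment gained or lost its call. What set these libraries apart was not tested. In bulk RNA, fewer cells of a kind and less RNA per cell cannot be told apart.

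**Figure D1:**
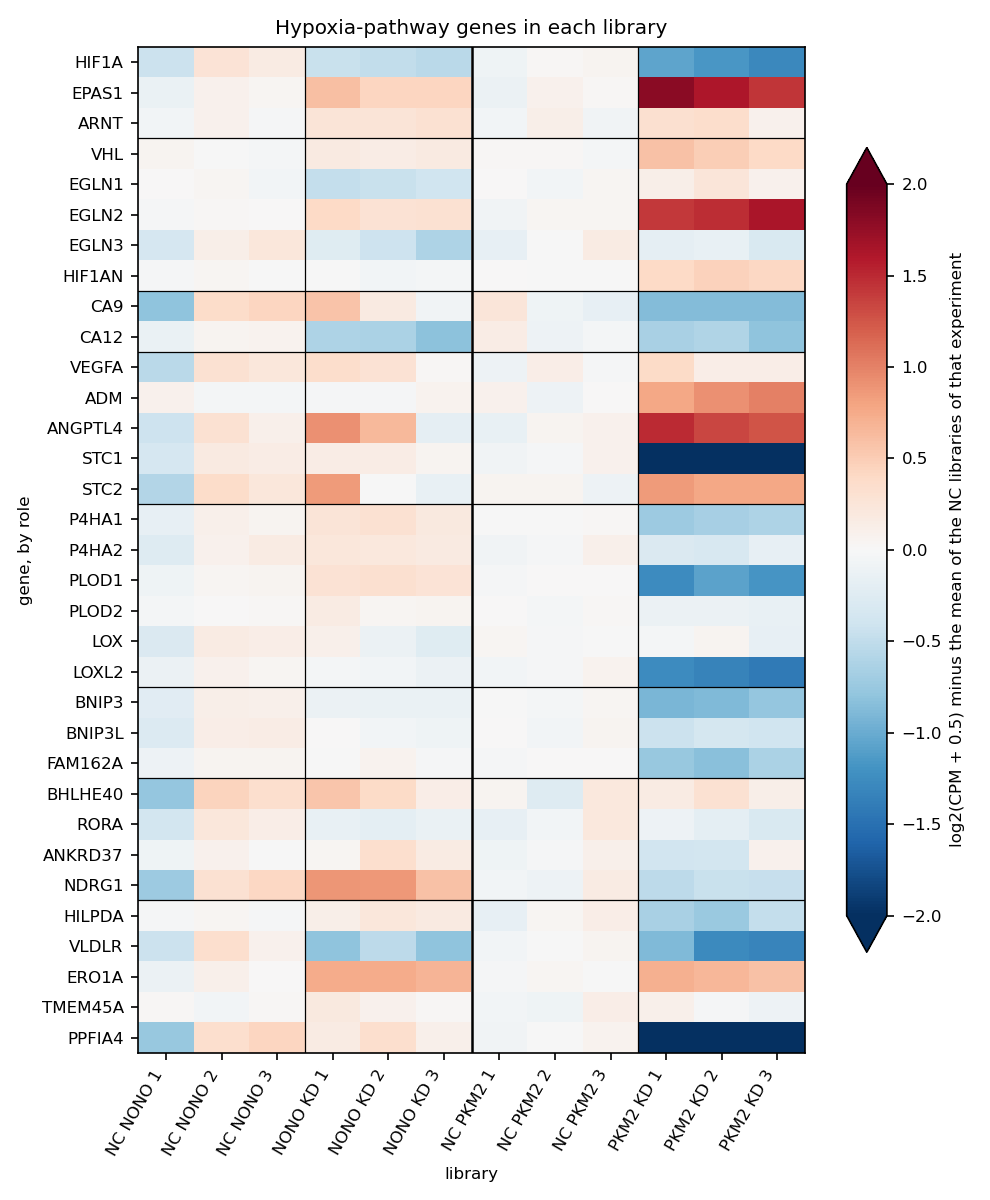
Heat map of the 33 genes (rows, grouped by role) in the 12 libraries (columns); colour gives log2(CPM + 0.5) minus the mean of the 3 NC libraries of the same experiment, with blue lower and red higher, and values beyond the ends of the scale share its last colour. NC library 1 of the NONO experiment is bluer than the other 2 NC libraries in many rows, and the 3 PKM2-knockdown libraries share the darkest blue at STC1 and PPFIA4.

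Levels of different genes were compared in TPM, which takes transcript length into account. In the NC cells of the PKM2 experiment BNIP3 (226 ± 3.71 TPM, SD, n = 3) stood highest. HIF1A (174 ± 10.8 TPM), NDRG1 (159 ± 50.9 TPM), LOXL2 (153 ± 8.63 TPM) and PLOD2 (146 ± 4.31 TPM) followed. BNIP3 lay above HIF1A beyond their spread, whereas neighbours from HIF1A to PLOD2 did not differ beyond theirs. FAM162A (101 ± 3.87 TPM) and STC1 (86.5 ± 4.54 TPM) came next. Of the oxygen sensors 4 lay in the middle, with EGLN2 at 45.4 ± 2.84 TPM, EGLN1 at 33.4 ± 0.505 TPM, VHL at 30.6 ± 0.529 TPM and HIF1AN at 19.9 ± 0.413 TPM, while EGLN3 was low at 3.94 ± 0.431 TPM. The lowest levels were those of CA9 (0.657 ± 0.315 TPM), STC2 (0.793 ± 0.357 TPM) and ANGPTL4 (2.15 ± 0.458 TPM), of which the first 2 did not differ beyond their spread. In the NC cells of the NONO experiment HIF1A (259 ± 62.3 TPM) and BNIP3 (236 ± 37.1 TPM) were again highest, without a difference beyond their spread, and STC2 (1.3 ± 0.435 TPM) and CA9 (1.72 ± 1.12 TPM) lowest. Summed over the 33 genes, the level was 1582 ± 76.3 TPM in the NC libraries of the PKM2 experiment and 1134 ± 24.6 TPM after PKM2 knockdown. It was 1792 ± 272 TPM in the NC libraries of the NONO experiment and 1838 ± 72.5 TPM after NONO knockdown, where the groups overlapped through NC library 1 (1477 TPM). The other NC libraries, at 1952 and 1946 TPM, lay above all 3 knockdown libraries (1759 to 1901 TPM).

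A gene was called where edgeR's quasi-likelihood test gave a Benjamini-Hochberg (BH) adjusted P below 0.05 over all genes tested. After NONO knockdown all 33 genes passed the filter on low counts, and 8 rose and 4 fell. Over all genes tested in that experiment 16.2% rose and 17.2% fell. At a change of at least 1.5-fold, 2 rose (ERO1A and NDRG1) and 2 fell (VLDLR and CA12), where 2.31% of all genes rose and 5.63% fell by as much. The median log2 fold change of the 33 was 0.12, against -0.01 over all genes tested. Without the first NC library the median was -0.012, against -0.00508 over all genes, and 8 of the 33 rose and 10 fell, where 21.0% and 20.2% of all genes tested did. The 12 genes called with it were called without it too, and BNIP3, BNIP3L, EGLN3, LOX, LOXL2 and RORA were called in addition, all lowered. In TPM (limma on log2(TPM + 1)) 6 of the 12 kept their call, CA12, EGLN1, EGLN2, ERO1A, PLOD1 and VLDLR.

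After PKM2 knockdown 26 of the 32 genes tested (81.2%) were called, in both directions, where 68.4% of all genes tested were. Of the 32 genes tested, 11 rose and 15 fell, where 33.6% of all genes tested rose and 34.7% fell. The count that rose lay near the share over all genes. At least 1.5-fold, 6 rose and 11 fell, against 16.1% and 22.4% of all genes. The median log2 fold change was -0.23, against -0.01 over all genes tested, and the values ran from -3.47 (PPFIA4) to 1.65 (EPAS1). ANKRD37, BHLHE40, EGLN3, LOX, RORA and TMEM45A were not called, and CA9 did not pass the filter on low counts.

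**Figure D2:**
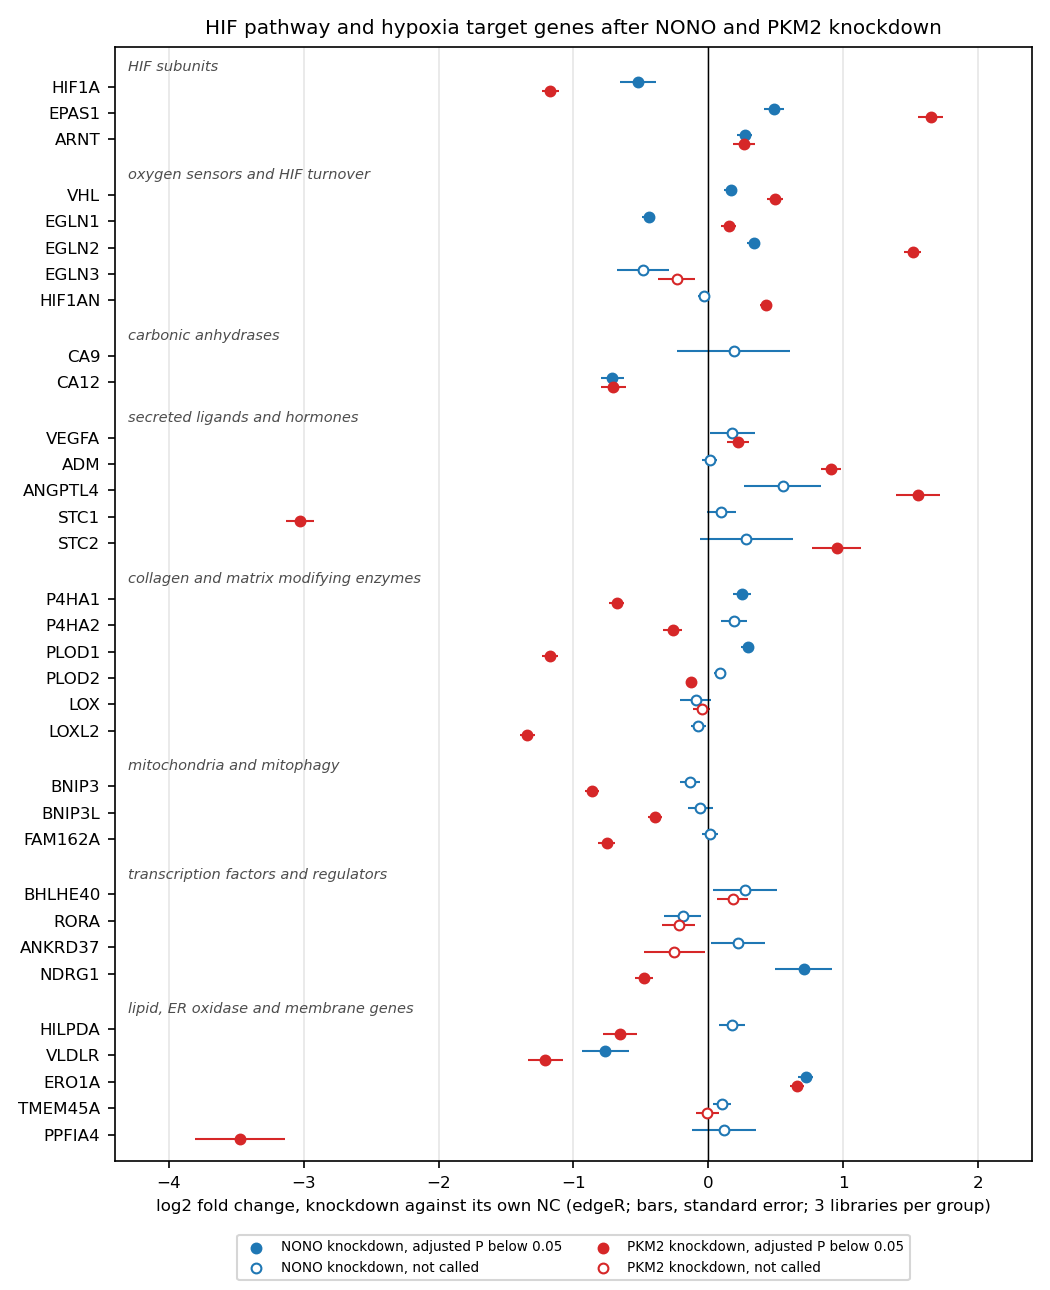
Log2 fold change of each gene after NONO (blue) and PKM2 (red) knockdown against the NC libraries of the same experiment, by role; bars give the standard error from edgeR with 3 libraries per group, and filled points have an adjusted P below 0.05. Red points reach from -3.47 (PPFIA4) to 1.65 (EPAS1), while blue points stay between -0.77 (VLDLR) and 0.72 (ERO1A); CA9 has no red point because it was not tested.

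HIF1A, which encodes the HIF-1α subunit, fell in both knockdowns while EPAS1, which encodes HIF-2α, and ARNT rose. HIF1A stood at 417, 446 and 459 CPM in the NC libraries of the PKM2 experiment and at 211, 195 and 180 CPM after PKM2 knockdown. The groups were well apart, a 2.25-fold lower level (log2 fold change -1.17 ± 0.06 SE, edgeR BH-adjusted P = 1.6e-08). In the NONO experiment HIF1A stood at 500, 812 and 752 CPM in the NC libraries and 495, 478 and 463 CPM after knockdown. The first NC library lay just above the knockdown libraries and far below the other NC libraries. HIF1A was lower by -0.52 ± 0.13 on the log2 scale with it (edgeR BH-adjusted P = 0.0104) and by -0.70 without it (edgeR BH-adjusted P = 3.48e-12). In TPM it was -0.54 and was not called (limma adjusted P = 0.0656). Without the third NONO-knockdown library HIF1A just missed the threshold (log2 fold change -0.50, edgeR adjusted P = 0.05004).

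EPAS1 stood at 22.4, 25.7 and 24.7 CPM in the NC libraries of the PKM2 experiment and rose to 86.2, 75.7 and 66.1 CPM after PKM2 knockdown. Each knockdown library held over 2 times the count of any NC library, a 3.13-fold rise (log2 fold change 1.65 ± 0.09 SE, edgeR BH-adjusted P = 2.74e-08). NONO knockdown gave 52.7, 47.0 and 46.9 CPM of EPAS1 against 31.7, 37.0 and 35.8 CPM in NC, again without overlap. That rise was 1.40-fold (log2 0.49 ± 0.07 SE, edgeR BH-adjusted P = 0.000473) and 0.44 on the log2 scale without the first NC library. In TPM it was 0.34 and was not called (limma adjusted P = 0.0775). The rise of EPAS1 was larger after PKM2 than after NONO knockdown, by 1.14 ± 0.13 log2 units (interaction in edgeR, BH-adjusted P = 8.27e-07). Set against HIF1A in TPM, a ratio chosen after the values were seen, EPAS1 was 4.56%, 4.60% and 4.25% of HIF1A in the NC libraries and 30.1%, 28.8% and 28.1% after PKM2 knockdown. In the NONO experiment it was 4.66%, 3.75% and 4.03% in NC and 7.91%, 7.49% and 7.94% after knockdown. HIF1A RNA thus remained the more abundant in all 12 libraries.

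ARNT, the shared partner of both α subunits, stood at 44.7, 49.1 and 45.5 CPM in NC and 55.6, 55.3 and 57.1 CPM after NONO knockdown. It rose by 0.27 ± 0.06 log2 units (edgeR BH-adjusted P = 0.0033), by 0.25 without the first NC library, and by TPM the value was 0.22 and was not called (limma adjusted P = 0.0711). In the PKM2 experiment it stood at 38.3, 43.2 and 37.9 CPM in NC and 49.98, 50.8 and 42.4 CPM after knockdown, with overlap through the third knockdown library. That rise of 0.26 ± 0.08 (edgeR BH-adjusted P = 0.0122) lost its call without the first NC, the third NC or the second knockdown library (edgeR adjusted P = 0.0557, 0.058 and 0.0514). In TPM the PKM2 value of ARNT was -0.07 (limma adjusted P = 0.67), the opposite sign. The change of ARNT did not differ detectably between the knockdowns (-0.02 ± 0.10 SE).

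**Figure D3:**
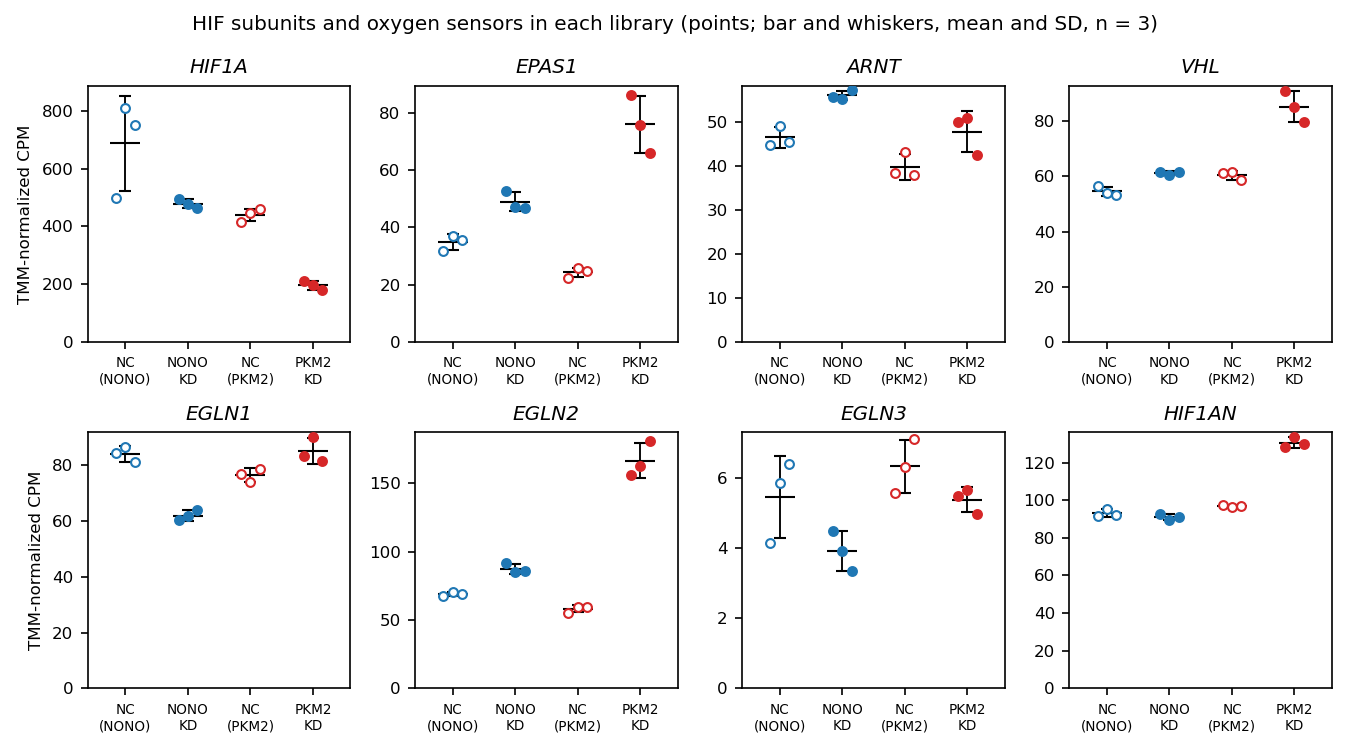
TMM-normalized CPM of the 3 HIF subunits and 5 oxygen sensors in each library; open points are NC and filled points knockdown libraries (blue, NONO experiment; red, PKM2 experiment), with the mean and SD of 3 libraries. After PKM2 knockdown HIF1A lies at 180 to 211 CPM, far below its NC libraries, and EPAS1 and EGLN2 lie far above theirs, while NC library 1 of the NONO experiment has HIF1A at 500 CPM, beside the knockdown libraries.

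Among the 5 genes that sense oxygen or turn HIF over, 2 rose and 1 fell after NONO knockdown, where 16.2% and 17.2% of all genes did. After PKM2 knockdown 4 of 5 rose, where 33.6% of all genes did. In TPM the PKM2 tally was different, with EGLN2 and VHL raised, HIF1AN and EGLN3 lowered and EGLN1 not called. EGLN2 (prolyl hydroxylase PHD1), whose promoter motif is shown above, stood at 55.4, 59.8 and 59.8 CPM in NC and 156, 162 and 181 CPM after PKM2 knockdown. All 3 knockdown libraries were far above NC, a 2.86-fold rise (log2 1.51 ± 0.06 SE, edgeR BH-adjusted P = 2.59e-09). After NONO knockdown it rose 1.26-fold, from 67.9, 70.5 and 69.3 CPM to 91.8, 84.9 and 85.7 CPM (edgeR BH-adjusted P = 0.000358), and the log2 value without the first NC library was 0.33. The rise was larger after PKM2 knockdown by 1.16 ± 0.08 log2 units (interaction in edgeR, BH-adjusted P = 4.64e-09). In GENCODE 29, 30.6% of the exon bases of EGLN2 are shared with the RAB4B-EGLN2 readthrough gene on the same strand, so reads of these genes may have been split.

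EGLN1 (PHD2), the main hydroxylase of HIF-1α in most cells, went opposite ways. It stood at 84.5, 86.6 and 81.1 CPM in NC and 60.2, 61.6 and 63.9 CPM after NONO knockdown, without overlap. The fall was 1.36-fold (log2 -0.44 ± 0.05 SE, edgeR BH-adjusted P = 6.12e-05) and -0.43 on the log2 scale without the first NC library. In the PKM2 experiment EGLN1 stood at 76.96, 73.8 and 78.7 CPM in NC and 83.4, 90.2 and 81.3 CPM after knockdown. That rise was small (log2 0.15 ± 0.06 SE, edgeR BH-adjusted P = 0.0321), was -0.03 in TPM (limma adjusted P = 0.741), and was lost without any 1 of the 3 NC libraries or the second knockdown library (highest edgeR adjusted P = 0.13) and with a replicate block (0.0504). The difference between the knockdowns, 0.58 ± 0.08 log2 units, was called (interaction in edgeR, BH-adjusted P = 5.53e-06).

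EGLN3 (PHD3), itself a HIF target, was scarce. It stood at 4.17, 5.86 and 6.40 CPM in NC and 4.49, 3.92 and 3.36 CPM after NONO knockdown, with overlap through the first NC library. Its log2 fold change was -0.48 ± 0.19 SE (edgeR BH-adjusted P = 0.0744) and -0.64 without that library (edgeR BH-adjusted P = 0.0058). In the PKM2 experiment it stood at 5.60, 6.31 and 7.13 CPM in NC and 5.51, 5.67 and 4.99 CPM after knockdown, which overlapped and was not called (-0.24 ± 0.14 SE, edgeR BH-adjusted P = 0.149). In TPM those groups did not overlap (3.52, 3.91 and 4.38 TPM against 2.95, 2.99 and 2.45 TPM) and EGLN3 was called lowered (-0.38, limma adjusted P = 0.0418). Of the summed TPM of the 3 EGLN genes, also a measure chosen after the values were seen, EGLN2 made up 54.8% ± 1.1 (SD, n = 3) in NC and 77.4% ± 2.46 after PKM2 knockdown. It made up 59.2% ± 1.11 in NC and 69.8% ± 1.46 after NONO knockdown, so that EGLN2 held the largest share in all 4 groups.

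VHL stood at 61.3, 61.5 and 58.5 CPM in NC and 90.9, 85.2 and 79.5 CPM after PKM2 knockdown, a 1.41-fold rise (edgeR BH-adjusted P = 1.53e-05). After NONO knockdown it stood at 61.5, 60.5 and 61.6 CPM against 56.4, 54.1 and 53.2 CPM. That rise of 0.17 ± 0.05 log2 units (edgeR BH-adjusted P = 0.0231) was called without the first NC library (edgeR BH-adjusted P = 0.00314), but not without any 1 of the other 5 libraries (edgeR adjusted P = 0.0571 to 0.0832), by DESeq2 (adjusted P = 0.0509), with a replicate block in edgeR (adjusted P = 0.0516) or in TPM (limma adjusted P = 0.108). HIF1AN stood at 97.4, 96.6 and 96.8 CPM in NC and 128, 134 and 130 CPM after PKM2 knockdown. By counts it rose 1.35-fold (log2 0.43 ± 0.05 SE, edgeR BH-adjusted P = 5.26e-06). In TPM it was lower, at 19.7, 20.4 and 19.7 TPM in NC and 16.0, 18.1 and 16.4 TPM after knockdown (-0.23 on the log2(TPM + 1) scale, limma adjusted P = 0.0257, with the median of all genes at -0.09). Its CPM per TPM went from 4.86 to 7.74, and this ratio grew by over 1.3 times in 4.52% of all genes and in no other gene of the set. The direction of HIF1AN therefore depends on the unit. After NONO knockdown it stood at 92.5, 89.3 and 91.0 CPM against 91.7, 95.5 and 92.2 CPM, which overlapped (-0.03 ± 0.04 SE).

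The carbonic anhydrases CA9 and CA12 sit in the plasma membrane and hydrate CO2 at the cell surface. CA12 fell in both knockdowns by about the same amount. It stood at 25.6, 29.2 and 29.4 CPM in NC and 18.1, 17.8 and 15.6 CPM after NONO knockdown, 1.64-fold lower (log2 -0.71 ± 0.09 SE, edgeR BH-adjusted P = 0.00012, and -0.76 without the first NC library). CA12 in the PKM2 experiment stood at 26.1, 22.04 and 22.9 CPM in NC and 15.0, 15.4 and 13.4 CPM after knockdown, 1.63-fold lower (log2 -0.70 ± 0.09 SE, edgeR BH-adjusted P = 2.55e-05). The groups did not overlap in either experiment, and the difference between the knockdowns was -0.01 ± 0.13 log2 units (not called).

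CA9, often used as a marker of hypoxia, was near the limit of detection. It had 17, 9 and 9 counts in the NC libraries of the PKM2 experiment and 0 counts in each of the 3 knockdown libraries. Against a floor of 3 counts over the knockdown group, CA9 was 10.2-fold lower. That value allows for counting error in the knockdown libraries only. Counting error of the 35 NC counts and spread between cultures are not in it, so it is no strict bound. In the NONO experiment it had 10, 37 and 40 counts in NC and 42, 29 and 23 counts after knockdown, which overlapped. In GENCODE 29, 38.5% of the exon bases of CA9 are shared with ARHGEF39 on the opposite strand, and the library kit is not stated to mark strand.

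Among genes of secreted ligands and hormones, 0 of 5 were called after NONO knockdown and all 5 after PKM2 knockdown, where 4 rose and 1 fell. Of all genes tested, 33.4% and 68.4% were called. The gene that fell was STC1, which encodes stanniocalcin-1, a glycoprotein hormone of calcium and phosphate balance. STC1 stood at 213, 220 and 236 CPM in NC and 33.4, 24.6 and 23.9 CPM after PKM2 knockdown. The groups lay far apart, a fall of 8.16-fold (log2 -3.03 ± 0.11 SE, edgeR BH-adjusted P = 7.1e-10). After NONO knockdown it stood at 321, 322 and 301 CPM against 231, 330 and 323 CPM, which overlapped (log2 0.10 ± 0.11 SE), and without the first NC library the value was -0.04. Its paralog STC2 rose after PKM2 knockdown from 1.95, 1.95 and 1.69 CPM to 3.77, 3.52 and 3.53 CPM, 1.94-fold (edgeR BH-adjusted P = 0.000582). STC1 and STC2 thus moved in opposite directions. After NONO knockdown STC2 stood at 4.94, 2.49 and 2.24 CPM against 1.51, 3.39 and 3.04 CPM, which overlapped.

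ANGPTL4, an inhibitor of lipoprotein lipase, stood at 1.91, 2.30 and 2.36 CPM in NC and 7.09, 6.27 and 5.95 CPM after PKM2 knockdown. Every knockdown library was above every NC library, a 2.94-fold rise (log2 1.55 ± 0.16 SE, edgeR BH-adjusted P = 4.36e-06). After NONO knockdown it stood at 7.68, 6.25 and 3.31 CPM against 2.76, 4.82 and 4.16 CPM, with overlap through the third knockdown library (log2 0.55 ± 0.29 SE, edgeR BH-adjusted P = 0.165). Without that library the value was 0.83 and was called (edgeR adjusted P = 0.027), and without the first NC library it was 0.37 (edgeR adjusted P = 0.244). ADM, the precursor of the vasodilator peptide adrenomedullin, stood at 40.1, 35.1 and 37.6 CPM in NC and 64.4, 71.3 and 76.0 CPM after PKM2 knockdown. The groups were apart, a 1.88-fold rise (edgeR BH-adjusted P = 5.05e-07). NONO knockdown left ADM at 48.5, 48.3 and 51.7 CPM against 52.0, 47.7 and 47.9 CPM, a log2 difference of 0.01 ± 0.06 SE. VEGFA, the main angiogenic growth factor, moved little. After PKM2 knockdown it lay at 73.9 to 88.2 CPM against 62.8 to 74.2 CPM in NC, a rise of 0.22 ± 0.08 log2 units (edgeR BH-adjusted P = 0.0314) with overlapping groups. That call was lost without the first NC, the third NC or the first knockdown library (edgeR adjusted P = 0.144, 0.0957 and 0.124) and in TPM (limma adjusted P = 0.626). After NONO knockdown VEGFA was not called (0.18 ± 0.17 SE), and its value was -0.03 without the first NC library.

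Of the 6 enzymes that hydroxylate and cross-link collagen, 5 fell after PKM2 knockdown and none rose. Over all genes tested 34.7% fell and 33.6% rose. LOXL2, a secreted amine oxidase that cross-links collagen, stood at 325, 333 and 356 CPM in NC and 141, 133 and 126 CPM after PKM2 knockdown. It was 2.54-fold lower (log2 -1.34 ± 0.06 SE, edgeR BH-adjusted P = 2.13e-09). PLOD1, a lysyl hydroxylase, stood at 90.0, 92.0 and 91.7 CPM in NC and 37.7, 43.4 and 40.1 CPM after PKM2 knockdown. The NC libraries agreed within a few CPM, and PLOD1 was 2.26-fold lower (log2 -1.18 ± 0.06 SE, edgeR BH-adjusted P = 1.15e-08). P4HA1, a catalytic subunit of collagen prolyl 4-hydroxylase, stood at 68.8, 68.8 and 70.4 CPM in NC and 41.5, 43.5 and 44.9 CPM after PKM2 knockdown, 1.60-fold lower (edgeR BH-adjusted P = 4.48e-07). P4HA2 (-0.26 ± 0.07 SE) and PLOD2 (-0.13 ± 0.04 SE) fell by less, and LOX was not called (-0.05 ± 0.06 SE). The call of PLOD2 was lost without the first NC, the third NC, the first knockdown or the second knockdown library (edgeR adjusted P = 0.0539 to 0.0856), whereas LOX was called lowered in TPM (limma adjusted P = 0.0229).

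Of these 6 enzymes 2 were called after NONO knockdown, and both rose, where 33.4% of all genes tested were called and 16.2% rose. PLOD1 stood at 87.6, 95.3 and 96.2 CPM in NC and 113, 116 and 112 CPM after NONO knockdown, without overlap. The rise was 1.22-fold (log2 0.29 ± 0.05 SE, edgeR BH-adjusted P = 0.000839, and 0.26 without the first NC library). P4HA1 stood at 60.9, 73.5 and 70.8 CPM in NC and 81.9, 84.3 and 77.7 CPM after NONO knockdown, a rise of 0.25 ± 0.07 log2 units (edgeR BH-adjusted P = 0.0154). Without the first NC library it was 0.18 and still called (edgeR BH-adjusted P = 0.0047), but the call was lost without the first or the second knockdown library (edgeR adjusted P = 0.0543 and 0.0768) and in TPM (limma adjusted P = 0.147). LOXL2 stood at 388, 447 and 433 CPM in NC and 409, 407 and 388 CPM after NONO knockdown, which overlapped (-0.07 ± 0.05 SE). It was -0.12 and called without the first NC library (edgeR BH-adjusted P = 0.004). LOX was not called with all libraries (-0.09) and was called lowered without that NC library (-0.22, edgeR BH-adjusted P = 0.0143). The changes of PLOD1, LOXL2 and P4HA1 were lower after PKM2 than after NONO knockdown (-1.48, -1.28 and -0.94 log2 units), each called as an interaction in edgeR (BH-adjusted P = 1.12e-10, 7.62e-10 and 1.21e-07).

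The 3 mitochondrial genes all fell after PKM2 knockdown, where 34.7% of all genes tested fell. With all libraries none was called after NONO knockdown, where 33.4% of all genes tested were. BNIP3, a mitophagy receptor of the outer mitochondrial membrane, stood at 287, 279 and 297 CPM in NC and 152, 155 and 168 CPM after PKM2 knockdown. It was 1.81-fold lower with no overlap (log2 -0.86 ± 0.05 SE, edgeR BH-adjusted P = 4.56e-08). FAM162A, a mitochondrial protein linked to hypoxic cell death, stood at 63.6, 64.5 and 65.02 CPM in NC and 37.8, 35.7 and 41.1 CPM after PKM2 knockdown, 1.68-fold lower (edgeR BH-adjusted P = 5.95e-07). BNIP3L (NIX), the paralog of BNIP3, fell by less, 1.32-fold (edgeR BH-adjusted P = 2.42e-05). In the NONO experiment BNIP3 stood at 235, 297 and 292 CPM in NC and 253, 249 and 250 CPM after knockdown. The first NC library lay below and the other NC libraries above all knockdown libraries, so the log2 fold change was -0.13 ± 0.07 SE with it (edgeR BH-adjusted P = 0.202) and -0.22 without it (edgeR BH-adjusted P = 9.94e-06). BNIP3L likewise was -0.06 with that library and -0.17 without it (edgeR BH-adjusted P = 0.00148). FAM162A stood at 57.0, 63.8 and 63.9 CPM in NC and 61.1, 64.3 and 60.7 CPM after NONO knockdown and did not differ detectably in either case (0.01 ± 0.06 SE, and -0.03 without that library).

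Of the 4 transcription factors and regulators, NDRG1 alone was called in each experiment. Over all genes tested 33.4% were called after NONO and 68.4% after PKM2 knockdown. NDRG1, a stress-induced protein known as a suppressor of metastasis in several tumours, went opposite ways. It stood at 153, 312 and 334 CPM in NC and 465, 460 and 378 CPM after NONO knockdown. All knockdown libraries were above all NC libraries, and the first NC library was the lowest by far. The rise was 1.63-fold (log2 0.71 ± 0.21 SE, edgeR BH-adjusted P = 0.0259) with that library and 0.44 log2 units without it (edgeR BH-adjusted P = 5.72e-06). The call was lost by DESeq2 (adjusted P = 0.0796), in TPM (limma adjusted P = 0.117) and without the first or the second NONO-knockdown library (edgeR adjusted P = 0.0883 and 0.094). In the PKM2 experiment it stood at 178, 174 and 207 CPM in NC and 130, 137 and 135 CPM after knockdown, 1.39-fold lower (edgeR BH-adjusted P = 4.47e-05). In TPM those groups overlapped (125 to 218 against 84.3 to 132 TPM) and the change was not called (limma adjusted P = 0.134). The difference between the knockdowns was -1.20 ± 0.26 log2 units (interaction in edgeR, BH-adjusted P = 0.000825), and -0.91 without NC library 1 of the NONO experiment. The repressor BHLHE40, the nuclear receptor RORA and the ankyrin repeat protein ANKRD37 were not called in either experiment, with log2 fold changes between -0.25 and 0.27. BHLHE40 showed how much the first NC library weighed, at 19.1 CPM beside 44.9 and 41.7 CPM in the other NC libraries. RORA was called lowered after NONO knockdown only without that library (-0.34, edgeR BH-adjusted P = 0.00474).

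ERO1A, the endoplasmic reticulum oxidase that recharges protein disulfide isomerase, rose by a like amount in both knockdowns. It stood at 108, 126 and 117 CPM in NC and 196, 196 and 187 CPM after NONO knockdown, 1.65-fold higher (log2 0.72 ± 0.06 SE, edgeR BH-adjusted P = 4.64e-06, and 0.68 without the first NC library). ERO1A in the PKM2 experiment stood at 82.8, 86.6 and 84.5 CPM in NC and 139, 134 and 128 CPM after knockdown, 1.58-fold higher (log2 0.66 ± 0.05 SE, edgeR BH-adjusted P = 3.14e-07). Neither experiment had overlapping groups, and the difference between the knockdowns was -0.08 ± 0.08 log2 units (not called). VLDLR, a lipoprotein receptor, fell in both. It stood at 13.2, 22.8 and 19.2 CPM in NC and 10.1, 12.4 and 10.0 CPM after NONO knockdown, 1.70-fold lower (log2 -0.77 ± 0.17 SE, edgeR BH-adjusted P = 0.00588, and -0.94 without the first NC library). VLDLR in the PKM2 experiment stood at 13.4, 13.9 and 14.4 CPM in NC and 7.33, 5.46 and 5.23 CPM after knockdown, 2.31-fold lower (edgeR BH-adjusted P = 5.17e-06).

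PPFIA4, which encodes liprin-α4, a scaffold protein, had the largest fall by counts among the 32 genes tested after PKM2 knockdown. It stood at 6.31, 6.59 and 6.99 CPM in NC and 1.08, 0.516 and 0.198 CPM after PKM2 knockdown, and each knockdown library was far below every NC library. The fall was 11.1-fold (log2 -3.47 ± 0.33 SE, edgeR BH-adjusted P = 2.12e-06). In TPM it went from 2.85 ± 0.642 to 0.443 ± 0.354 (SD, n = 3), a smaller change, and its CPM per TPM in the knockdown libraries was 0.579 times that in NC. On the log2(TPM + 1) scale, which understates changes at low levels, PPFIA4 was -1.43 and STC1 -3.04. In the NONO experiment it stood at 6.67, 14.8 and 15.9 CPM in NC and 13.2, 14.8 and 12.6 CPM after knockdown, which overlapped (0.12 ± 0.24 SE, and -0.17 without the first NC library). HILPDA, a lipid droplet protein that inhibits triglyceride breakdown, stood at 9.04, 10.5 and 11.3 CPM in NC and 6.34, 5.93 and 7.25 CPM after PKM2 knockdown, 1.58-fold lower (edgeR BH-adjusted P = 0.000606). After NONO knockdown HILPDA stood at 11.5, 12.4 and 11.9 CPM against 10.4, 10.9 and 10.4 CPM, which did not overlap and was not called (0.18 ± 0.09 SE, edgeR BH-adjusted P = 0.179). TMEM45A, a membrane protein, was not called in either experiment (0.10 ± 0.06 and -0.01 ± 0.09 SE).

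Of the 32 genes tested in both experiments 12 were called in both, where 27.2% of the 14525 genes tested in both were. HIF1A, CA12 and VLDLR were lowered in both (9.93% of all genes), and ARNT, EGLN2, EPAS1, ERO1A and VHL were raised in both (9.34% of all genes). EGLN1, NDRG1, P4HA1 and PLOD1 were called in opposite directions (7.97% of all genes). As given above, some of these calls were lost when a single library was left out. They were those of HIF1A, VHL, NDRG1 and P4HA1 after NONO knockdown and of ARNT and EGLN1 after PKM2 knockdown. Tested as an interaction over the 12 libraries, the change differed between the knockdowns for 21 of 33 genes, where 53.1% of the genes tested did. It was higher after PKM2 knockdown for 7 and lower for 14, and 15 of the 21 differed by at least 1.5-fold. Shares of all genes by direction or at this size were not counted for the interaction, so these counts describe the set alone. Those with the widest differences other than CA9 were PPFIA4 (-3.60 ± 0.46 log2 units, edgeR BH-adjusted P = 4.19e-06) and STC1 (-3.14 ± 0.17, edgeR BH-adjusted P = 1.2e-10). For HIF1A the difference was -0.66 ± 0.16 (edgeR BH-adjusted P = 0.00258), and -0.47 without NC library 1 of the NONO experiment. STC2 did not pass (0.66 ± 0.41, edgeR BH-adjusted P = 0.196) and did so without that library (0.94, edgeR BH-adjusted P = 0.0423).

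**Figure D4:**
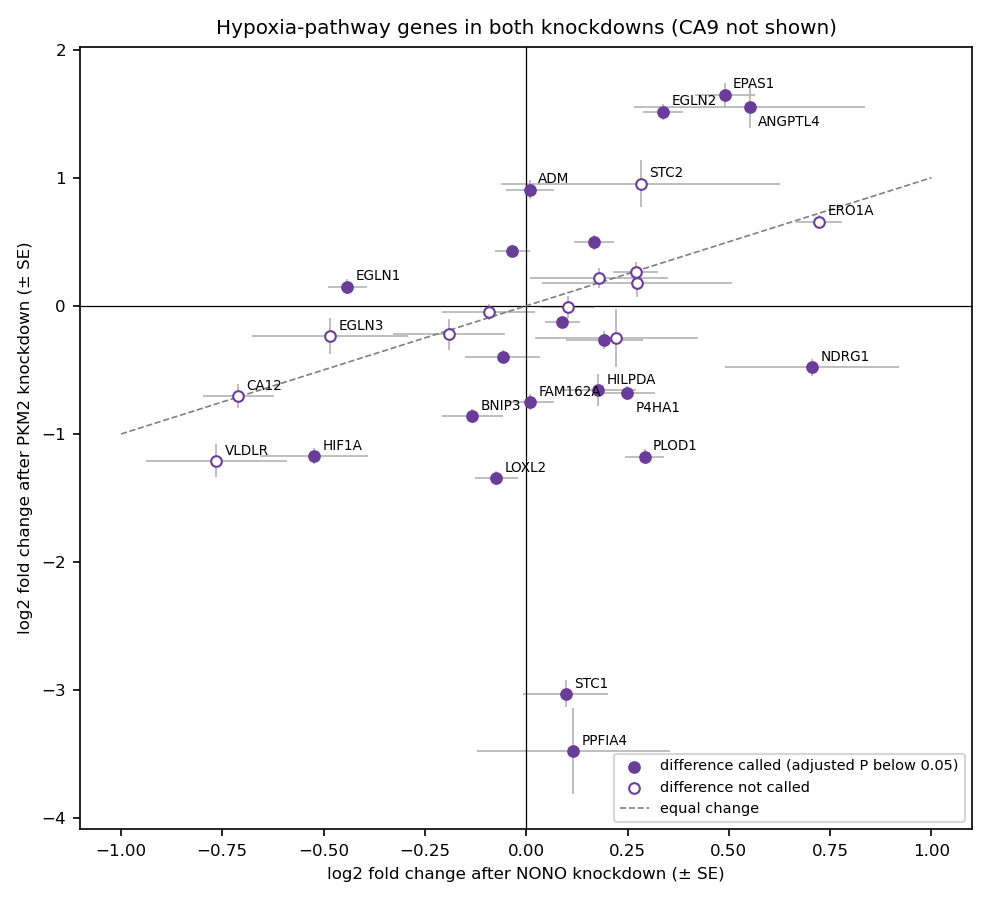
Log2 fold change of each gene after NONO knockdown (horizontal) and PKM2 knockdown (vertical), with standard errors; filled points differ between the knockdowns at an adjusted P below 0.05, and the dashed line marks equal change. CA12 and ERO1A lie on the line, STC1 and PPFIA4 lie far below it, and NDRG1, PLOD1 and P4HA1 lie to the right of 0 and below 0.

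The other genes of the pathway, from lists outside the 33, were described in the same way. Over all genes tested 33.6% rose and 34.7% fell after PKM2 knockdown, and 16.2% rose and 17.2% fell after NONO knockdown. Several of the counts below lie near these shares. Of 20 glycolytic hypoxia targets 2 rose and 14 fell after PKM2 knockdown, and their median log2 fold change was -0.59, while 2 rose and 4 fell after NONO knockdown. The largest changes among them after PKM2 knockdown were ALDOC, an aldolase (-2.52 ± 0.17 SE), PDK1, which restrains pyruvate dehydrogenase (-1.86 ± 0.10 SE), and SLC2A3, the glucose transporter GLUT3 (1.74 ± 0.05 SE). Among those called after NONO knockdown the largest were PFKL (0.78 ± 0.07 SE), HK2 (-0.44 ± 0.04 SE) and HK1 (-0.23 ± 0.04 SE), enzymes of early glycolysis. ALDOC (-0.44 ± 0.18 SE), ENO2 (-0.25 ± 0.10 SE) and PDK1 (-0.24 ± 0.11 SE) changed by more than HK1 but were not called. Without the first NC library these were called, at -0.62, -0.37 and -0.37. Of 16 HIF regulators tested, 10 rose and 2 fell after PKM2 knockdown. The largest changes were P4HTM, a transmembrane prolyl hydroxylase (-1.30 ± 0.11 SE), the coactivator gene CREBBP (1.00 ± 0.10 SE) and CITED2, a competitor of HIF for coactivators (0.85 ± 0.05 SE). After NONO knockdown 2 of these regulators rose and 1 fell, HSP90AA1 (0.35 ± 0.05 SE), SIAH2 (0.31 ± 0.09 SE) and P4HTM (-0.39 ± 0.13 SE). Of the remaining hypoxia targets 7 of 24 tested rose and 10 fell after PKM2 knockdown, led by MIR210HG, the host transcript of miR-210 (-3.83 ± 0.38 SE), the adenylate kinase AK4 (-2.34 ± 0.07 SE) and PDGFB (2.00 ± 0.26 SE). After NONO knockdown 5 of 22 rose and 2 fell, led by HMOX1 (-0.93 ± 0.10 SE), INSIG2 (-0.58 ± 0.13 SE) and GYS1 (0.36 ± 0.06 SE). Without the first NC library 3 of the 20 glycolytic targets rose and 9 fell after NONO knockdown, 5 of the 16 regulators rose and 1 fell, and 5 of the 22 remaining targets rose and 3 fell. With that library left out, 21.0% of all genes tested rose and 20.2% fell. The 9 genes named as called after NONO knockdown with all libraries kept their direction and their call.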

How the data were processed

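Libraries were poly(A)-selected and sequenced as paired Illumina reads. Estimated counts for each gene and library were deposited by the authors and rounded to whole numbers here, together with TPM values made by the authors. The submitters' processing notes name fastp, HISAT2, StringTie, RSEM, DESeq2, edgeR, limma and hg19, with no role given. Group means, fold changes, P-values and adjusted P-values of the authors' own comparisons are in the same tables and were not used. Whether counting used strand is not given in the sources used here, so values of overlapping, antisense or near-identical genes are uncertain.

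Groups and replicates came from the sample labels. The main test was edgeR 4.0.16 (R 4.3.3; quasi-likelihood, TMM, filterByExpr defaults) on the 6 libraries of each experiment, with BH adjustment over all genes tested, and the knockdowns were compared by an interaction in 1 fit over 12 libraries. Standard errors come from the F statistic. Alternatives were DESeq2 1.42.0, RLE factors, a fit with every gene kept, a replicate block, limma 3.58.1 on log2(TPM + 1) or log2(TPM + 0.1) where the mean TPM reached 1, the former with that filter dropped, the paper's cutoff (fold change above 2 and unadjusted P below 0.05), subtraction of the trend with length and GC content in 20 bins, and each library left out in turn. The fits were tested on simulated counts in which 200 genes changed 4-fold. edgeR recovered 200 of them with 28 false calls for the NONO experiment, and 198 with 16 false calls for the PKM2 experiment. False calls were thus a larger share of the calls than the threshold of 0.05, so calls close to it are less certain.

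The 33 genes and the lists were chosen with earlier results of these data known. Values in every library are given for the HIF subunits and oxygen sensors and for genes called with at least a 1.5-fold change or difference, the other members by range and count, and the lists outside the 33 by counts and the 3 largest changes called. Gene overlaps come from GENCODE 29 on GRCh38, not the build of the notes, and promoters from RefSeq. Protein sequences were not analysed here.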

Additional observations from a re-analysis of the deposited data

Results flagged for a closer look

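For 15 genes the change differed between the knockdowns in the interaction test of edgeR (BH-adjusted P below 0.05) by at least 1.5-fold. The share of all genes that differed by as much was not counted. Differences are log2 fold changes after PKM2 knockdown minus those after NONO knockdown, each against its own NC group, and their causes were not tested. They were negative for PPFIA4 (-3.60), STC1 (-3.14), PLOD1 (-1.48), LOXL2 (-1.28), NDRG1 (-1.20), P4HA1 (-0.94), HILPDA (-0.85), FAM162A (-0.78), BNIP3 (-0.74) and HIF1A (-0.66). They were positive for EGLN2 (1.16), EPAS1 (1.14), ANGPTL4 (0.99) and ADM (0.88). For CA9 the fitted value was -6.53, which depends on the prior count because all 3 PKM2-knockdown libraries held 0 counts, and is no bound. The call of ANGPTL4 was lost without the second NC library of the NONO experiment (edgeR adjusted P = 0.0729), the first NC library of the PKM2 experiment (0.0631) or the first PKM2-knockdown library (0.0537).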

How the results depend on the processing

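After NONO knockdown (12 of 33 genes of the set called, 4954 of all genes) limma on log2(TPM + 1) called 6 and 2645, with the pseudocount of 0.1 it called 6 and 2657, and without the TPM filter 4 and 1699. At the paper's cutoff the set had 0 calls, against 12 by edgeR's adjusted P, and all genes 437. After PKM2 knockdown (26 of 32, and 10614) that cutoff gave 9 and 3234, and for the difference between the knockdowns (21 of 33) it gave 8. The cause was not tested, except that the cutoff requires a larger change by construction. The other alternatives that gave calls kept these counts within 1.5 times. Subtraction of the trend with length and GC content gave values without calls. With the length trend taken out, the median PKM2 value was 0.20 in the lowest and -0.28 in the highest GC bin. Subtraction took the PKM2 values of PLOD2 from -0.13 to -0.31, RORA from -0.22 to -0.45 and ANKRD37 from -0.25 to -0.48. Towards 0 it took LOXL2 from -1.34 to -1.12 and PLOD1 from -1.18 to -0.95. With each library left out in turn the set had 9 to 18 calls after NONO knockdown, 22 to 26 after PKM2 knockdown and 20 to 22 for the difference, and the 18 were reached without NC library 1.

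Same-numbered libraries did not deviate together (correlations of -0.0651 to 0.0365 in the NONO and -0.0655 to 0.0118 in the PKM2 experiment). With 3 libraries per group this cannot show whether they were prepared together, and the labels give only a number. A replicate block gave 11, 25 and 22 calls in the set and 4351 and 10525 over all genes.

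Signs turned for genes near 0, and the causes were not tested. Without 1 library the NONO values ranged from -0.19 to 0.48 for CA9, -0.0319 to 0.34 for VEGFA, -0.0235 to 0.0598 for ADM, -0.041 to 0.19 for STC1, -0.16 to 0.50 for STC2, -0.17 to 0.0193 for BNIP3L, -0.0326 to 0.0444 for FAM162A, -0.012 to 0.49 for BHLHE40 and -0.17 to 0.34 for PPFIA4. The PKM2 values ranged from -0.0942 to 0.0154 for LOX and -0.05996 to 0.0613 for TMEM45A, which was 0.00395 by DESeq2 and 0.00374 with RLE factors. On the TPM scales with a pseudocount of 1 (with or without the filter) and of 0.1, the values were -0.0569 and -0.0579 for ADM after NONO knockdown, and after PKM2 knockdown -0.0741 and -0.0792 for ARNT, -0.0308 and -0.0317 for EGLN1 and -0.23 and -0.24 for HIF1AN, whose difference between the knockdowns became -0.16 and -0.17. Over all genes the median PKM2 value was -0.0937 and -0.105 on these scales with the filter, and HIF1AN relative to it was -0.14 on both.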
